A study of Homo sapiens with 12 samples.

Results

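The genes described here are CTNNB1, which encodes beta-catenin, and 9 genes whose products capture, phosphorylate and hand over beta-catenin for degradation: APC, AXIN1, AMER1, GSK3A, GSK3B, CSNK1A1, BTRC, FBXW11 and TNKS. They were chosen by symbol, and all 10 were found among the 25528 rows of the deposited expression table. RNA-seq had been run on HT-29, a widely used human cell line from a colon adenocarcinoma. Its labelled genotype is APC mutant, so every group carries that lesion and none is an APC wild-type control. In the overexpression arm, HT-29 cells received lentivirus encoding GFP (the control) or CTNNB1 and were collected 2 days after infection. In the hairpin arm they received lentivirus encoding the control hairpin shNT1 or a hairpin against APC (shAPC), and harvest followed 1 day after doxycycline was added at 2 µM to induce the hairpin. There were 3 libraries per group, 12 in all. Nothing in the labels says whether these came from separate cultures, so p-values measure only the spread between these libraries, which may be technical. Levels are in TPM, a transcript abundance scaled for transcript length and to the same total in every library.

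In cells without a WNT signal, AXIN1 and APC form a scaffold that holds beta-catenin beside the kinases. Casein kinase 1 alpha, from CSNK1A1, phosphorylates a serine near the amino terminus of beta-catenin, and glycogen synthase kinase 3, from GSK3A and GSK3B, then phosphorylates further residues upstream of it. The phosphorylated stretch is bound by an F-box protein, beta-TrCP1 from BTRC or beta-TrCP2 from FBXW11, and beta-catenin is ubiquitinated and degraded. AMER1 (WTX) recruits complex members to the plasma membrane, and tankyrase, from TNKS, marks AXIN for destruction and so limits the scaffold. In colon epithelium, loss of full-length APC is the best known route to stabilised beta-catenin. Beta-catenin is regulated mainly as a protein, which RNA-seq does not measure.

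The coding stretch on which this machinery acts is shown because every kinase and F-box gene below converges on it. It lies in exon 3 of transcript CTNNB1-201 (GENCODE 29, GRCh38, chr3:41224600-41224653, plus strand) and covers codons 30 to 47. The sequence is the reference, not one read from these cells. Capitals mark the 4 phosphorylated codons: serine 33 and serine 37, which lie in the part bound by the F-box proteins, threonine 41, and serine 45, the casein kinase 1 residue.
CTNNB1 degron coding stretch: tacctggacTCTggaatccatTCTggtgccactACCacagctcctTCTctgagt

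The number of genes above 0 TPM ran from 14756 (shNT1 replicate 3) to 16186 (shAPC replicate 1), and depth cannot be read from TPM. The line's epithelial identity was visible: 8 or 9 of 11 colon epithelial markers were above 1 TPM in every library of a group, with CDX1 and CDX2 below 1 TPM throughout. No fibroblast (of 6) or endothelial (of 4) marker passed 1 TPM in every library of any group, and the lymphoid markers CD3E and MS4A1 were at 0 in all 12. The 2 immune markers that passed were CD68 and CD14. The summed immune markers ran from 28.8 to 30.1 TPM in GFP, 14.7 to 16.9 in CTNNB1, 15.0 to 17.4 in shNT1 and 8.73 to 10.9 in shAPC, and their part in the results below was not tested. Transcript length was known for 10584 of 11739 genes. Across these, the deviation of CTNNB1 replicate 1 from its group mean rose with length (Spearman rho 0.41). In CTNNB1 replicates 2 and 3 rho was -0.23 and -0.38. Such deviations offset each other within a group, so they do not mark 1 library as the outlier. CTNNB1 replicates 1 and 3 correlated least within that group (r 0.994), and shNT1 replicates 2 and 3 less still (0.991). The overexpression differences of the 10 genes are also given without CTNNB1 replicate 1. CTNNB1 replicate 3 deviated with length almost as far the other way, and its omission is not given gene by gene.

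All 10 genes were expressed in every library, over a wide range of levels. Casein kinase 1 alpha was the most abundant, with a median of 206 TPM over the 12 libraries for CSNK1A1, followed by the substrate itself at 152 TPM for CTNNB1 and by GSK3A at 75.6 TPM. GSK3B (53.6 TPM) and FBXW11 (44.1 TPM) came next and overlapped in range. AXIN1 followed at 29.1 TPM. APC (14.6 TPM) overlapped TNKS (8.31 TPM), which in turn overlapped BTRC (7.94 TPM), and AMER1 was the least abundant at 5.63 TPM. By transcript level, then, the substrate outnumbered both of its scaffolds in every library. Of the 10, 9 varied little, with the highest library between 1.17 and 1.40 times the lowest, while for APC that ratio was 3.54.

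**Figure D1:**
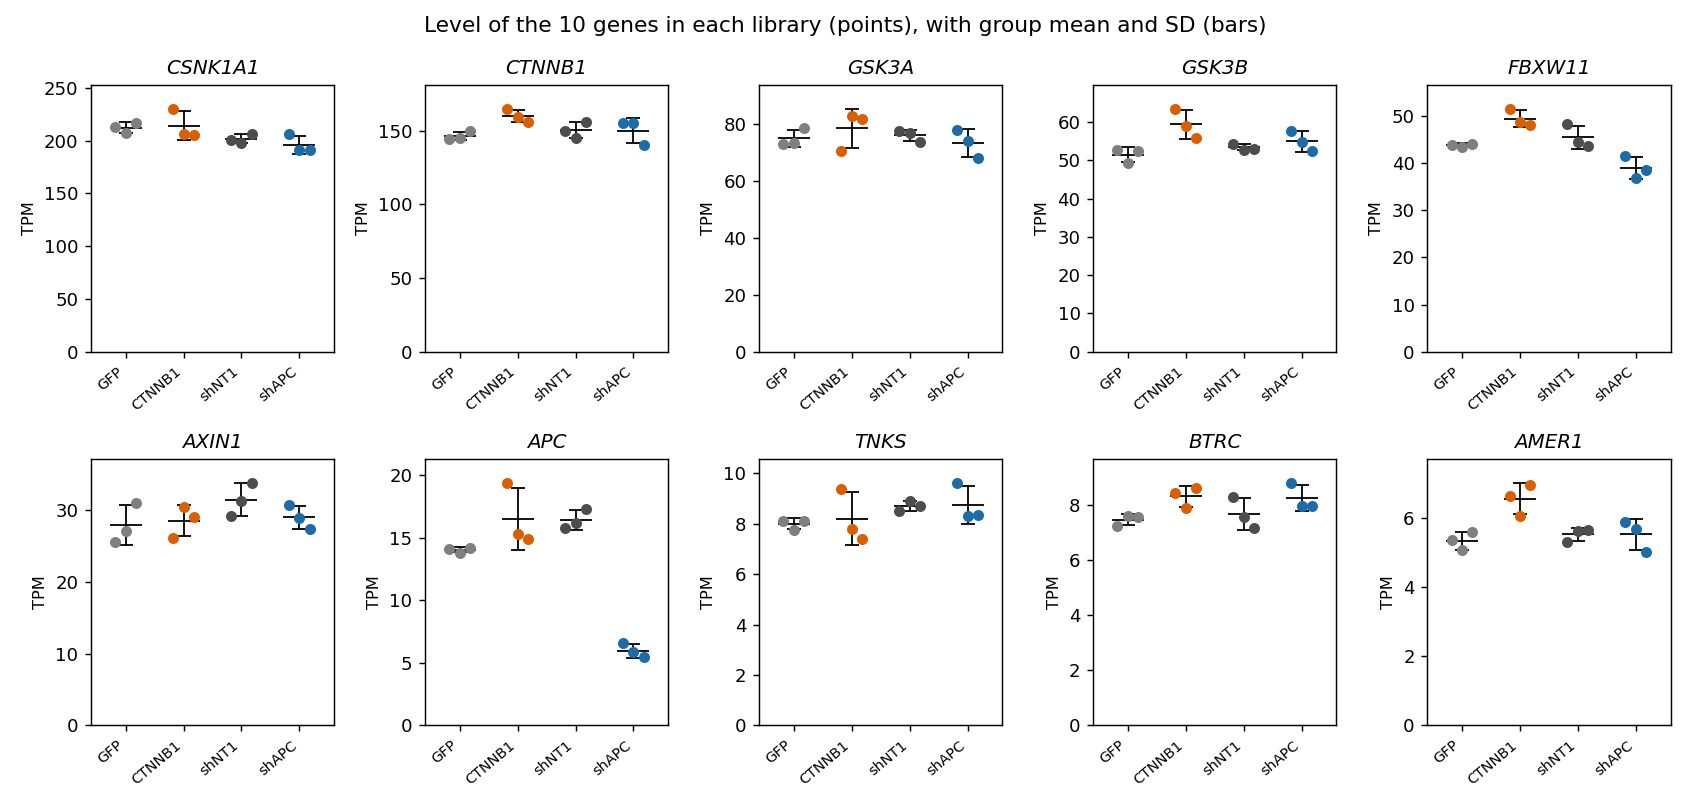
TPM (vertical axes, each starting at 0) of the 10 genes in the 12 libraries, coloured by group, with group means and SDs as bars and genes in order of median level. APC in the 3 shAPC libraries (5.48 to 6.59 TPM) is the only clear break; FBXW11 has its highest group mean in CTNNB1 (49.5 TPM) and its lowest in shAPC (38.97 TPM).

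The transcript of the delivered gene was only slightly more abundant in the cells labelled as overexpressing it. CTNNB1 (chr3:41194741-41260096, plus strand) stood at 144.2, 145.2 and 149.6 TPM in the GFP libraries and at 164.6, 159.6 and 156.2 TPM in the CTNNB1 libraries. The groups did not overlap, but the difference was 1.09-fold (146.3 ± 2.87 against 160.1 ± 4.24 TPM, SD, n = 3). In limma across all genes tested, the log2 difference was 0.13 (SE 0.04), with an adjusted p of 0.059 that missed the threshold of 0.05. It was 0.11 with an adjusted p of 0.0496 without CTNNB1 replicate 1. Whether transcripts from the vector are counted in the CTNNB1 row is not given in the sources used here.

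Knockdown of APC left the CTNNB1 transcript near its control level. CTNNB1 was at 149.8, 145.3 and 156.2 TPM in shNT1 and at 155.0, 155.0 and 140.5 TPM in shAPC. The groups overlapped, and the log2 difference of -0.00 had a 95% interval from -0.13 to 0.12.

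Among the scaffolds, APC responded to its own hairpin. APC (chr5:112707498-112846239, plus strand), which binds beta-catenin and AXIN, stood at 15.8, 16.1 and 17.3 TPM in shNT1 and at 6.59, 5.91 and 5.48 TPM in shAPC. Every shAPC library lay below every other library of the series, and the mean fell by 63.5%, with a log2 change of -1.32 (SE 0.08, adjusted p = 6.1e-06). In the overexpression arm APC was at 14.1, 13.8 and 14.2 TPM in GFP and at 19.4, 15.3 and 14.9 TPM in CTNNB1. The groups did not overlap, yet replicate 1 was far above its mates, and the log2 difference of 0.21 (SE 0.09, adjusted p = 0.13) was not called. Without that replicate it was 0.10.

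AXIN1 (chr16:287440-352673, minus strand), a scaffold often described as the limiting component of the complex, was not called in either arm. Its level was 25.6, 27.2 and 31.0 TPM in GFP and 26.2, 30.4 and 29.04 TPM in CTNNB1, a log2 difference of 0.03 (95% interval -0.15 to 0.22), or 0.09 without CTNNB1 replicate 1. With the hairpins it was at 29.3, 31.4 and 33.8 TPM in shNT1 against 30.7, 28.98 and 27.4 TPM in shAPC, a log2 difference of -0.11 (95% interval -0.27 to 0.04). Both pairs of groups overlapped.

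AMER1 (chrX:64185117-64205744, minus strand), the membrane adaptor, was higher with CTNNB1. It rose from 5.37, 5.07 and 5.59 TPM in GFP to 6.64, 6.06 and 6.96 TPM in CTNNB1, which is 1.23-fold, with a log2 change of 0.25 (SE 0.08, adjusted p = 0.047). All 3 CTNNB1 libraries lay above all 3 GFP libraries, but the call sat at the edge of the threshold. Leaving out any one of the 6 libraries gave an adjusted p from 0.058 to 0.17, the former without CTNNB1 replicate 1, where the log2 difference was 0.24. In shNT1 and shAPC the means were both 5.52 TPM (SD 0.19 and 0.46).

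Of the kinases, GSK3B was higher with CTNNB1, and the other 2 kinase genes were not called. GSK3B (chr3:119821323-120094417, minus strand) rose from 52.6, 49.2 and 52.5 TPM in GFP to 63.3, 58.9 and 55.9 TPM in CTNNB1, a log2 change of 0.20 (SE 0.06, adjusted p = 0.036) that was 0.16 (adjusted p = 0.038) without CTNNB1 replicate 1. Leaving out GFP replicate 1, 2 or 3 or CTNNB1 replicate 2 ended the call, with adjusted p-values from 0.079 to 0.15. Its close relative GSK3A was at 75.0 ± 3.11 TPM in GFP and 78.6 ± 6.78 TPM in CTNNB1 (log2 difference 0.06, adjusted p = 0.53). CTNNB1 replicate 1, at 70.8 TPM, was the lowest of those 6 GSK3A libraries, and without it the log2 difference was 0.14 and passed the threshold (adjusted p = 0.049). CSNK1A1 was at 212.3 ± 5.10 against 214.0 ± 13.6 TPM (log2 difference 0.01, 95% interval -0.11 to 0.13, or -0.04 without CTNNB1 replicate 1).

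No kinase gene was called in the hairpin arm, and none had an unadjusted p under 0.05. GSK3B went from 53.3 ± 0.79 TPM in shNT1 to 54.9 ± 2.65 TPM in shAPC (log2 difference 0.04), GSK3A from 76.1 ± 1.92 to 73.5 ± 4.99 TPM (-0.05) and CSNK1A1 from 201.7 ± 4.24 to 196.1 ± 8.54 TPM (-0.04). All 3 pairs of groups overlapped.

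The F-box gene FBXW11 moved in opposite directions in the arms. FBXW11 (chr5:171861549-172006873, minus strand), whose product beta-TrCP2 recognises the phosphorylated degron printed above, rose from 43.9, 43.4 and 44.2 TPM in GFP to 51.5, 48.8 and 48.1 TPM in CTNNB1. That is 1.13-fold, with a log2 change of 0.17 (SE 0.05, adjusted p = 0.035), and 0.14 (adjusted p = 0.028) without CTNNB1 replicate 1. With shAPC it fell from 48.3, 44.5 and 43.6 TPM in shNT1 to 41.5, 36.9 and 38.6 TPM in shAPC, a mean lower by 14.3% and a log2 change of -0.22 (SE 0.06, adjusted p = 0.037). The groups did not overlap in either arm. Each call on its own was sensitive to the processing. Of 8 other settings of the full data, 5 kept the call in the overexpression arm and 3 in the hairpin arm. With median-ratio scaling the adjusted p in limma was 0.11 in the overexpression arm and 0.065 in the hairpin arm. Leaving out GFP replicate 1, 2 or 3 or CTNNB1 replicate 2 gave adjusted p-values from 0.085 to 0.14, and leaving out shNT1 replicate 1 or 2 or shAPC replicate 2 or 3 gave 0.14, 0.065, 0.13 and 0.10.

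BTRC, the other beta-TrCP gene, was not called in either arm. It was at 7.25, 7.61 and 7.58 TPM in GFP and 8.45, 7.91 and 8.63 TPM in CTNNB1, groups that did not overlap, with a log2 difference of 0.14 (adjusted p = 0.18), or 0.13 without CTNNB1 replicate 1. The hairpin groups overlapped, at 7.68 ± 0.57 TPM in shNT1 and 8.26 ± 0.48 TPM in shAPC (log2 difference 0.09, 95% interval -0.09 to 0.27).

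TNKS, the tankyrase that turns over AXIN, was at 7.99 ± 0.22 TPM in GFP and 8.19 ± 1.06 TPM in CTNNB1 (log2 difference 0.03, 95% interval -0.17 to 0.23, or -0.07 without CTNNB1 replicate 1). In shNT1 and shAPC it was at 8.70 ± 0.18 and 8.74 ± 0.75 TPM (log2 difference 0.00, 95% interval -0.17 to 0.18). The groups overlapped in both arms.

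Counted together, 3 of the 10 genes were called in the overexpression arm (GSK3B, FBXW11 and AMER1, all higher), against 23.5% of the 11624 genes tested, with 16.3% called higher. That share is near the background. Over all genes the log2 differences of this arm rose with transcript length (Spearman rho 0.24). The longest coding transcripts have 8443 bases for AMER1, 7711 for GSK3B and 4539 for FBXW11. Those of APC (10701) and TNKS (9620), neither of them called, are longer. The part of length in these calls was not tested. With median-ratio scaling none of the 10 was called in limma (3 had an unadjusted p under 0.05), and 23.4% of all genes were. All 3 CTNNB1 libraries lay above all 3 GFP libraries for 6 of the 10, against 30.2% of genes tested in that direction and 43.2% in either. The median log2 difference was 0.13 over the 10 genes and 0.06 over all genes tested. All 10 differences were positive with TPM as deposited, but those of AXIN1, GSK3A, CSNK1A1 and TNKS turned negative under median-ratio scaling. The same genes were negative in the authors' deposited table.

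With shAPC 2 of the 10 were called, APC and FBXW11, both lower, against 22.1% of the 11834 genes tested and 14.9% called lower. The same 2 were the genes whose groups did not overlap, against 40.9% of all genes and 26.4% with shAPC lower. The median log2 difference was -0.02 over the 10 and -0.04 over all genes. In shAPC replicate 1 all 10 genes lay above their group mean, and in shAPC replicate 3 none did, so the 10 genes' deviations within a group are not independent of each other.

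The difference between the arms was tested directly, by subtracting the shAPC effect from the CTNNB1 effect in 1 limma fit of the 12 libraries. It was called for 2 of the 10 genes, against 16.1% of the 11741 genes tested and 13.3% called positive. APC differed by 1.53 on the log2 scale (SE 0.13, adjusted p = 1.2e-05), which restates the hairpin's own target. FBXW11 differed by 0.39 (SE 0.08, adjusted p = 0.0059). Unlike its calls within each arm, this one was kept in all 7 other settings of the full data, with values from 0.28 to 0.40, and in all 12 fits that left out a library, with values from 0.35 to 0.43. AMER1 (0.25, adjusted p = 0.13), GSK3B (0.16, adjusted p = 0.17) and CTNNB1 (0.13, adjusted p = 0.20) were not called. The median over all genes was 0.11, and 0.00 under median-ratio scaling, where FBXW11 still differed by 0.28 (adjusted p = 0.024). Over all genes the log2 differences also ran with transcript length, in opposite directions (Spearman rho 0.24 with CTNNB1 and -0.12 with shAPC), and the part of length in the FBXW11 result was not tested. Vector, collection day and doxycycline differ between the arms and cannot be told apart from the perturbations in this contrast.

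**Figure D2:**
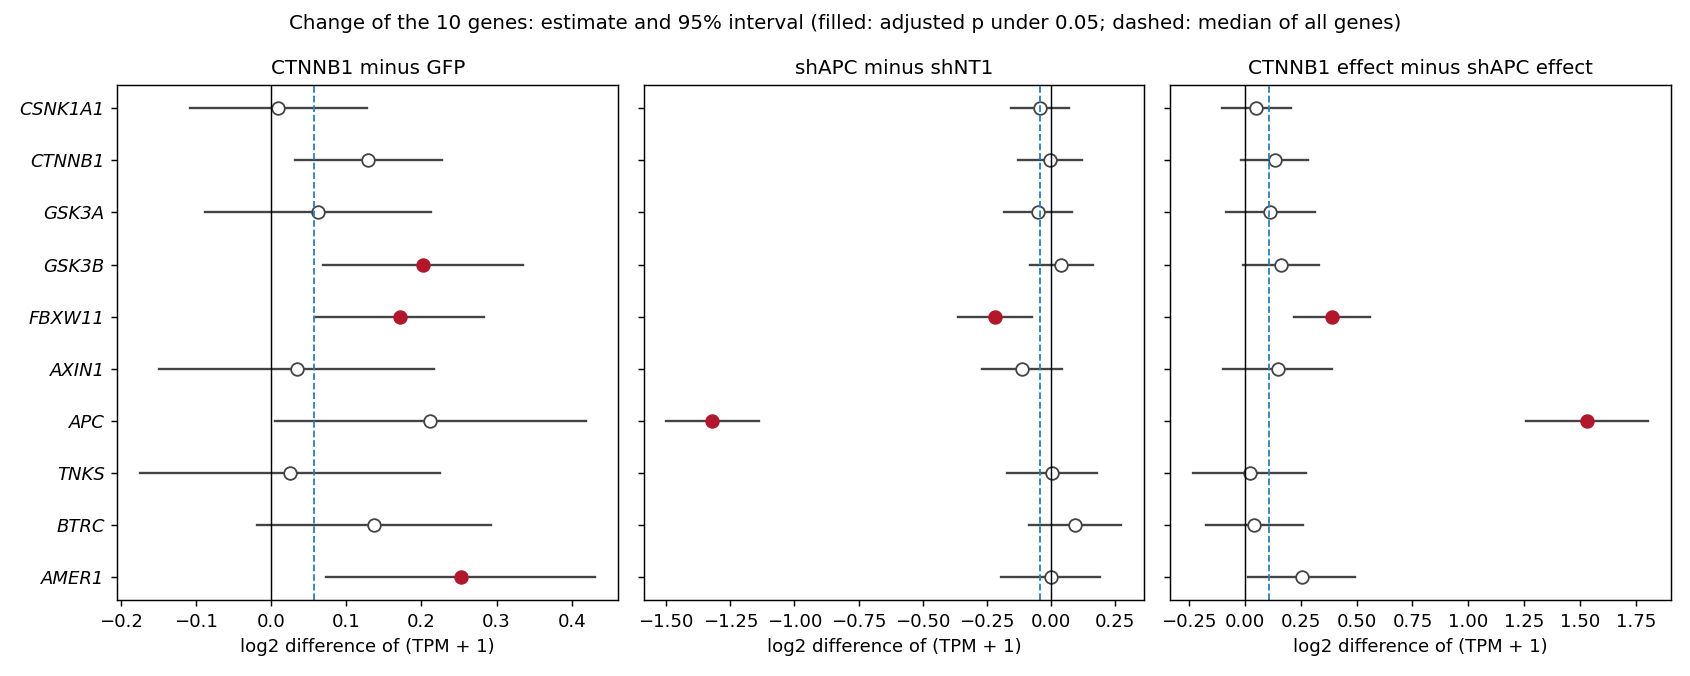
Log2 differences of TPM + 1 (horizontal axes, with different ranges) for the 10 genes, as limma estimates with 95% intervals, in each arm and for the CTNNB1 effect minus the shAPC effect; filled points have an adjusted p under 0.05 and the dashed line is the median of all genes. FBXW11 is filled in all 3 panels, above 0 with CTNNB1 (0.17) and below 0 with shAPC (-0.22).

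The promoter of FBXW11 is printed because the gene differed between the arms in the direct contrast, though its call within each arm was not stable. Beside it stands the promoter of SP5, a transcription factor gene whose induction is a common readout of beta-catenin activity. Both run from 250 bases before to 50 after the start site (RefSeq, GRCh38.p14): FBXW11 at chr5:172006589-172006888 on the minus strand and SP5 at chr2:170715087-170715386 on the plus strand. Capitals mark CTTTGAT or CTTTGAA, core sequences bound by TCF/LEF factors, on either strand.
FBXW11 promoter: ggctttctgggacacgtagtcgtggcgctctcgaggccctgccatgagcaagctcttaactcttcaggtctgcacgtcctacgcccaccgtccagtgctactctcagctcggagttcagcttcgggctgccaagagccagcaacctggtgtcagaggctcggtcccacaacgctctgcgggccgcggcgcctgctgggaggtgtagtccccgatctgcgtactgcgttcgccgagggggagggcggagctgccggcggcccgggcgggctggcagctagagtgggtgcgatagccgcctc
SP5 promoter: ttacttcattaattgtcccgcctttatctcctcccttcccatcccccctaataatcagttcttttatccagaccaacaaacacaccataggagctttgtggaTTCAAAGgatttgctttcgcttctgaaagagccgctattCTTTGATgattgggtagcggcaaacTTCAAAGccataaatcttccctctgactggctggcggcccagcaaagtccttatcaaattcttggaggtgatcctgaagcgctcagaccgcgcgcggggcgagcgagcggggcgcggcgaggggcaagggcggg
The FBXW11 window held neither sequence, and the SP5 window held 3 matches, at -148, -109 and -84 from the start site. Of the 7 readout genes listed below, 2 had windows (SP5 and RNF43). Of their 3 windows, 1 held a match, that of SP5. Among the junction genes listed below, 2 windows of CTNNA1 held a match, and CTNNA1 was called in neither arm. Whether a match goes with a response was not tested. RefSeq windows were at hand for 8 of the 10 genes (all except BTRC and TNKS), and none of their 10 windows held either sequence. Among 35116 windows of the same length, 2.62% held CTTTGAT, 4.43% held CTTTGAA and 6.86% held either, so most windows of any gene hold neither.

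Several of the 10 genes have a paralog. Since TPM is scaled for length, the balance within a pair can be read in each library and does not depend on the scaling between libraries. The trends with transcript length can still enter where a pair differs in length. The longest coding transcripts have 3524 bases for GSK3A and 7711 for GSK3B, and 6134 for BTRC and 4539 for FBXW11. The part of length in the shares was not tested. The scaffold pair changed most. AXIN2, whose product can stand in for AXIN1 and which is itself a target of beta-catenin, went from 39.2 ± 1.85 TPM in GFP to 81.6 ± 1.47 TPM in CTNNB1, and from 29.9 ± 1.77 TPM in shNT1 to 92.1 ± 3.93 TPM in shAPC. AXIN1 therefore made up 39.3%, 42.2% and 43.1% of the summed AXIN transcripts in GFP but 24.5%, 27.4% and 25.9% in CTNNB1. Among the hairpin libraries its share was 51.2%, 50.6% and 52.1% in shNT1 and 24.4%, 23.6% and 23.8% in shAPC. AXIN1 was thus the minor partner already in GFP, and less so than in CTNNB1, while in shNT1 it was slightly the more abundant of the pair and in shAPC the minor one. Neither pair of groups overlapped, and both comparisons gave an exact two-sided permutation p = 0.1, the smallest that 3 libraries against 3 allow. The summed AXIN level rose from 67.1 ± 4.19 to 110.1 ± 2.86 TPM with CTNNB1 and from 61.4 ± 3.96 to 121.2 ± 5.50 TPM with shAPC.

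The F-box pair shifted in the hairpin arm. BTRC made up 14.7%, 14.5% and 14.1% of the summed beta-TrCP transcripts in shNT1 and 17.5%, 17.8% and 17.1% in shAPC, a gain of 3.04 percentage points without overlap (exact permutation p = 0.1). In the overexpression arm the share was 14.6 ± 0.39% in GFP and 14.4 ± 0.69% in CTNNB1, with overlapping groups (exact permutation p = 0.8). FBXW11 was the major transcript of the pair in all 12 libraries.

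The kinase pair moved little. GSK3A made up 58.8 ± 0.53% of the GSK3 transcripts in shNT1 and 57.2 ± 0.55% in shAPC, without overlap (exact permutation p = 0.1). In the overexpression arm it was 59.3 ± 1.06% in GFP and 56.9 ± 3.61% in CTNNB1 (exact permutation p = 0.3). That difference, -2.43 percentage points, was -0.36 when CTNNB1 replicate 1, at 52.8%, was left out.

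TNKS was the minor tankyrase transcript, at 17.9 ± 0.59% of TNKS and TNKS2 in GFP and 16.5 ± 0.45% in CTNNB1 (exact permutation p = 0.1), and at 17.2% in both hairpin groups (exact permutation p = 1). APC made up 98.9% to 99.9% of APC and APC2 in every library. Of these 10 comparisons over 5 pairs none could pass 0.05, so the shares are given as sizes with their spread.

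**Figure D3:**
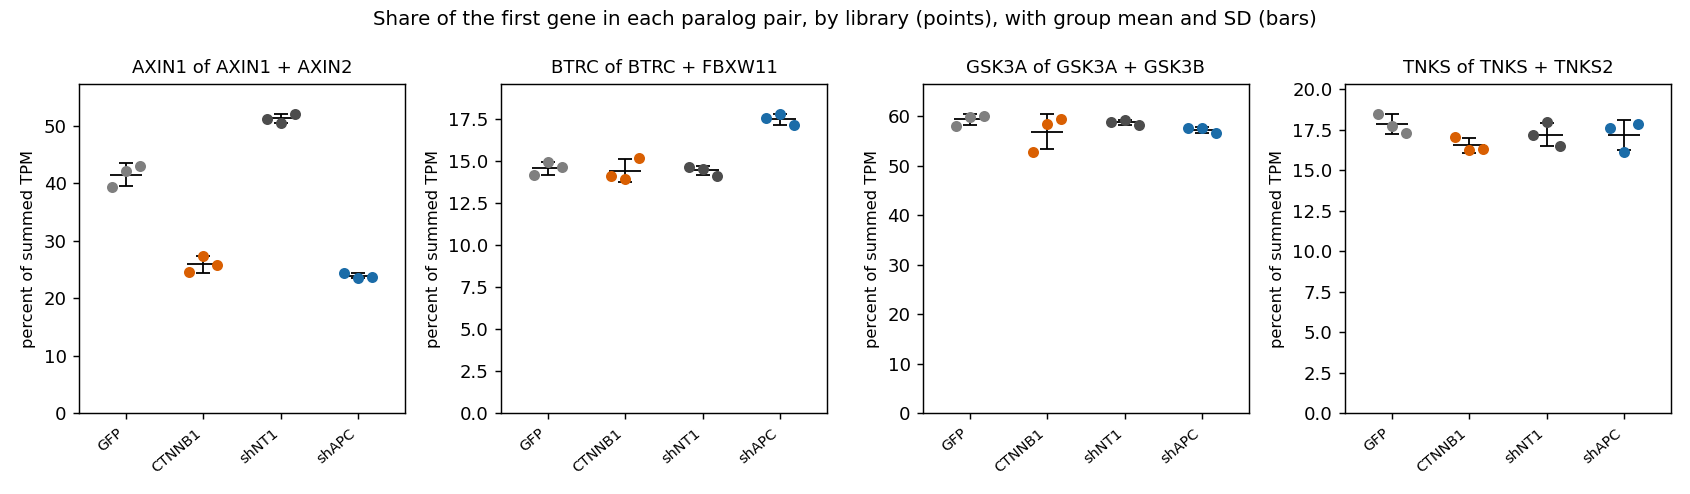
Share of the first gene in 4 paralog pairs, in percent of summed TPM (vertical axes from 0), in each library, with group means and SDs as bars. The AXIN1 share drops from 41.5% to 25.9% with CTNNB1 and from 51.3% to 23.9% with shAPC; the BTRC share is higher in shAPC (17.5%) than in the other 3 groups.

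A pair of ratios, added after the values had been seen, set the CTNNB1 transcript against genes whose products bind beta-catenin. There were 10.4 ± 0.17 CTNNB1 transcripts per APC transcript in GFP and 9.80 ± 1.14 in CTNNB1 (exact permutation p = 0.5), and 9.17 ± 0.28 in shNT1 against 25.1 ± 1.42 in shAPC (exact permutation p = 0.1). Per transcript of CDH1, the E-cadherin that holds beta-catenin at the membrane, there were 0.45 ± 0.00 in GFP and 0.50 ± 0.01 in CTNNB1, and 0.44 ± 0.02 in shNT1 and 0.55 ± 0.01 in shAPC (exact permutation p = 0.1 in both arms). Under shAPC both ratios moved through their denominators, APC and CDH1, since CTNNB1 itself stayed within its spread.

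Beyond the 10 genes, 58 genes of the same machinery and its surroundings were read from lists by role. Of these, 51 were expressed highly enough to be tested. With CTNNB1, 11 rose and none fell in limma at an adjusted p under 0.05 (1 was lower at an unadjusted p under 0.05), against 16.3% higher and 7.16% lower over all genes. Of these 11, 6 are readout genes, which were listed with earlier results of these data known. Among them NKD1 and NOTUM passed the filter of mean TPM only through the perturbed libraries, in both arms. The absence of falls did not hold throughout: with median-ratio scaling 10 rose and 2 fell (PPP2CB and DVL1), with 6 lower at an unadjusted p under 0.05. Without CTNNB1 replicate 1, 10 rose and 1 fell (GSKIP), again with 6 lower unadjusted; those 10 were called with all libraries too, and NOTUM was then too low to test. Without CTNNB1 replicate 3, 11 rose and 2 fell (NEDD8 and DVL1). In the authors' deposited table for this arm PPP2CA (-0.11, adjusted p 0.016) and PPP2CB (-0.18, adjusted p 0.024) were lower. With shAPC, 11 rose and 10 fell, against 7.24% higher and 14.9% lower. Over the 51 the median log2 difference was 0.08 and -0.02, against 0.06 and -0.04 over all genes.

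Other scaffold, kinase and phosphatase genes gave 1 call of 17 tested with CTNNB1, AXIN2 (log2 change 1.04, SE 0.05, adjusted p = 3.0e-06). With shAPC 6 of the 17 were called, against 22.1% of all genes tested (23.5% with CTNNB1). AXIN2 (1.59) and RNF146 rose. RNF146, the ubiquitin ligase that completes tankyrase-driven removal of AXIN, went from 11.1 ± 1.91 to 14.5 ± 0.31 TPM (log2 change 0.37, adjusted p = 0.033). The 4 that fell were among the 9 subunits of protein phosphatase 2A in this list, an enzyme that counteracts the kinases of the complex and also has many other substrates. The other 5 subunits were not called, with log2 differences from -0.13 to 0.06, and over all genes 14.9% were called lower. The scaffold subunit PPP2R1B went from 44.9 ± 3.17 to 34.7 ± 1.76 TPM (-0.36) and the catalytic subunit PPP2CB from 68.8 ± 2.19 to 55.9 ± 1.95 TPM (-0.29). The regulatory subunit PPP2R5E went from 28.9 ± 0.80 to 24.1 ± 0.24 TPM (-0.25) and the catalytic subunit PPP2CA from 172.2 ± 2.98 to 154.1 ± 5.05 TPM (-0.16). The more abundant scaffold subunit PPP2R1A was at 157.6 ± 2.76 and 160.3 ± 8.55 TPM and was not called. The median of the 17 was -0.02. The call of PPP2CA was lost in 4 of 8 other settings and, with 1 exception (shAPC replicate 1), when any library was left out (adjusted p 0.078 to 0.13). RNF146 lost its call in 2 of 8 settings and without shAPC replicate 1, 2 or 3 (0.085 to 0.098), and PPP2R5E without shNT1 replicate 1 (0.055). The log2 change of RNF146 was 0.23 without shNT1 replicate 3.

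In the ubiquitin ligase core and its conjugating enzymes, none of 7 genes was called with CTNNB1 in limma, and none had an unadjusted p under 0.05. Over all genes tested 23.5% were called with CTNNB1 and 22.1% with shAPC, where 2 of the 7 were called. UBE2D3, a ubiquitin-conjugating enzyme, fell from 189.7 ± 8.03 to 153.6 ± 6.31 TPM (log2 change -0.30, adjusted p = 0.0035). SKP1, the adaptor that links F-box proteins to the cullin, rose from 195.6 ± 12.1 to 221.5 ± 3.34 TPM (0.18, adjusted p = 0.042), a call kept in 5 of 8 other settings. It was lost when any library except shNT1 replicate 3 was left out (adjusted p 0.082 to 0.16). CUL1, the cullin itself, was at 118.0 ± 10.98 and 108.8 ± 5.64 TPM and was not called.

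Upstream of the complex, 1 of 6 signal transducers was called with CTNNB1 and 2 of 6 with shAPC. The shares over all genes tested were 23.5% and 22.1%. The WNT co-receptor gene LRP6 rose from 28.0 ± 0.64 to 35.7 ± 5.62 TPM with CTNNB1 (0.33, adjusted p = 0.033), a call kept in 4 of 8 other settings and lost without GFP replicate 1, 2 or 3 or CTNNB1 replicate 2 (adjusted p 0.063 to 0.098). Its log2 change was 0.21 without CTNNB1 replicate 1. DVL1, the Dishevelled protein that disables the complex on WNT binding, fell from 30.6 ± 1.78 to 23.4 ± 1.41 TPM with shAPC (-0.37, adjusted p = 0.0038). CAPRIN2, reported to aid LRP5 and LRP6 phosphorylation, fell from 12.1 ± 0.77 to 7.98 ± 0.71 TPM (-0.54, adjusted p = 0.0016).

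Of 6 adherens junction partners, 2 were called with CTNNB1 and 3 with shAPC, against 23.5% and 22.1% of all genes tested. CDH3 (P-cadherin) rose in both arms, from 16.01 ± 0.27 to 22.8 ± 1.63 TPM with CTNNB1 (0.48) and from 23.7 ± 0.85 to 28.2 ± 2.37 TPM with shAPC (0.24), the latter a call lost in 3 of 8 other settings and when any library except shAPC replicate 3 was left out (adjusted p 0.052 to 0.13). VCL (vinculin) rose with CTNNB1 from 66.7 ± 1.43 to 89.1 ± 2.67 TPM (0.41, adjusted p = 0.00029). With shAPC, CDH1 fell from 342.1 ± 18.1 to 271.6 ± 18.5 TPM (-0.33, adjusted p = 0.0047) and JUP, the gene of gamma-catenin and the closest relative of beta-catenin, from 127.1 ± 2.82 to 105.8 ± 8.93 TPM (-0.27, adjusted p = 0.016). Without shAPC replicate 3 the adjusted p of JUP was 0.0502.

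Of 9 nuclear partners tested, 2 were called in each arm, near the 23.5% (CTNNB1) and 22.1% (shAPC) of all genes tested. TCF7, a DNA-binding partner of beta-catenin, rose from 25.6 ± 1.98 to 40.04 ± 1.80 TPM with CTNNB1 (0.63) and from 30.2 ± 1.48 to 44.6 ± 4.21 TPM with shAPC (0.54). CTNNBIP1 (ICAT), an inhibitor of the beta-catenin and TCF interaction, rose from 6.19 ± 0.81 to 9.30 ± 0.56 TPM with CTNNB1 (0.52, adjusted p = 0.0041). TCF7L2 fell from 55.8 ± 3.44 to 44.9 ± 2.93 TPM with shAPC (-0.31, adjusted p = 0.010). In shAPC it was level with TCF7, and in the other 3 groups it had the higher mean. LEF1 was listed at 0 in all 12 libraries.

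The 7 readout genes are established targets of beta-catenin and include negative regulators of the pathway. They gave 6 calls with CTNNB1 and 7 with shAPC, all higher, with median log2 changes of 1.38 and 1.59. Over all genes tested, 16.3% and 7.24% were called higher. NKD1 and NOTUM were well under 1 TPM in both control groups and passed the filter of mean TPM only through the CTNNB1 or shAPC libraries. A call of higher was therefore the only one they could add to these counts. The antagonist gene NKD1 went from 0.04 ± 0.03 to 4.34 ± 0.45 TPM with CTNNB1 and from 0.12 ± 0.03 to 6.48 ± 0.83 TPM with shAPC. RNF43, a ubiquitin ligase that removes WNT receptors, was the one readout gene not called with CTNNB1 (85.3 ± 1.85 to 91.2 ± 4.29 TPM, adjusted p = 0.20), and with shAPC it rose from 77.2 ± 4.69 to 104.3 ± 7.39 TPM. NOTUM, a secreted enzyme that inactivates WNT proteins, went from 0.10 ± 0.10 to 1.99 ± 0.58 TPM with CTNNB1 (log2 change 1.43) and from 0.13 ± 0.12 to 3.54 ± 0.74 TPM with shAPC (1.99). Its log2 changes were 3.47 and 4.06 with a pseudocount of 0.1 in place of 1. ZNRF3, the relative of RNF43, rose in both arms (0.69 and 0.70 on the log2 scale). LGR5, an intestinal stem cell receptor, rose by 1.38 and 1.21, and SP5 by 2.14 and 2.24. Their differences between the arms, 0.16 (95% interval -0.10 to 0.43) and -0.10 (-0.45 to 0.25), were not called. These changes stood beside a CTNNB1 transcript difference of 1.09-fold in one arm and an APC mean that fell by 63.5% in the other. Whether that CTNNB1 value counts vector transcripts is not given in the sources used here, and protein was not measured. The membership of this list followed earlier results of these data, so its direction is not independent evidence.

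**Figure D4:**
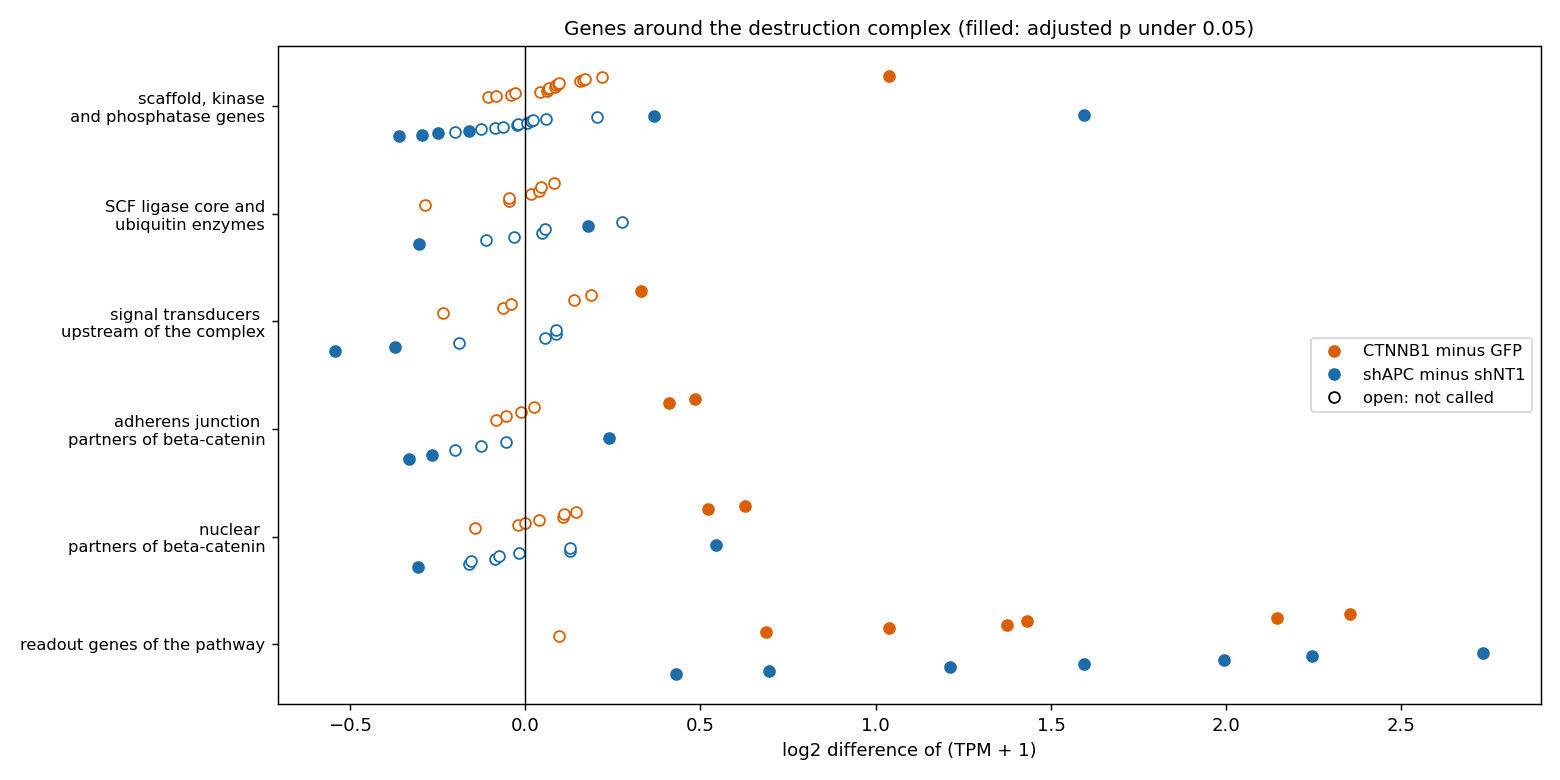
Log2 differences of TPM + 1 (horizontal axis) of the tested genes in 6 lists by role, for CTNNB1 minus GFP and shAPC minus shNT1; each point is a gene, filled where its adjusted p was under 0.05, and AXIN2 stands in the first and last list. The readout genes lie to the right in both arms, while most genes of the other lists lie within 0.5 of 0.

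Over the 12 libraries, the genes whose log2(TPM + 1) ran most nearly parallel to CTNNB1, among 9439 genes with a mean of at least 5 TPM, were CREBBP (Pearson r 0.95), SRCAP (0.95) and KIAA1671 (0.94). For APC they were SUCO (0.99), ADIPOR2 (0.99) and PIK3CB (0.98). SUCO, like APC, was lowest in the shAPC libraries (30.1 TPM against 45.2 to 51.4 TPM in the other group means). Its selection by correlation with APC favours that pattern, so the low level is no separate observation. These values describe 12 libraries in 4 groups that share composition and length effects, and under median-ratio scaling only 1 of the 3 genes was shared for each target (SRCAP and SUCO). Among the 10 genes themselves the closest pairs were APC and FBXW11 (r 0.85) and CTNNB1 and GSK3B (0.83). With group means removed, these were 0.42 and 0.64, and the closest pairs were APC and CSNK1A1 (0.94), CSNK1A1 and TNKS (0.93) and APC and TNKS (0.92).

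The authors' deposited tables gave the same signs for every gene called above among the 10, with other adjusted p-values. Signs differed for genes not called. With CTNNB1 the authors' log2 fold changes were negative for AXIN1 (-0.036), GSK3A (-0.0087), CSNK1A1 (-0.065) and TNKS (-0.047). With shAPC they were positive for CTNNB1 (0.035) and AMER1 (0.041). In the authors' deposited table for CTNNB1 against GFP, FBXW11 had a log2 fold change of 0.10 and an adjusted p of 0.017. GSK3B (0.13, 0.079), CTNNB1 (0.06, 0.10) and AMER1 (0.21, 0.10) missed 0.05 in the same authors' deposited table. In the authors' deposited table for the hairpin arm APC was at -1.41 (adjusted p 0.00038) and FBXW11 at -0.18 (adjusted p 0.16). Some list genes called above also missed 0.05 in the authors' deposited tables. These were LRP6 with CTNNB1 (adjusted p 0.15) and, with shAPC, RNF146 (0.15), TCF7L2 (0.077), CDH3 (0.064) and JUP (0.053).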

How the data were processed

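The authors deposited TPM values for 12 libraries and 1 table per comparison. Per the submitters' processing notes, STAR 2.7.3a, limma and hg38 were used; annotation, quantification tool and model are not given in the sources used here. Per the file headers, the authors' deposited tables hold log2 fold changes, p-values and adjusted p-values, and a moderated t and log-odds score that were not used here. TPM keeps no depth, so depth is unknown. Columns outside the listed samples numbered 0. Of the row names, 27 were dates.

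Each arm was fitted with limma 3.58.1 (R 4.3.3) on log2(TPM + 1), with mean TPM of at least 1, a mean-variance trend and Benjamini-Hochberg adjustment over all genes tested. A gene was called at an adjusted p under 0.05. Adding 1 understates changes of low genes. The contrast between arms used 1 fit of 12 libraries. Paralog shares were compared by exact permutation tests over libraries, two-sided. Scripts were tested on simulated data.

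The 10 genes and the lists were chosen with earlier results of these data known. The named genes are the 10, every list gene called in either arm and the 3 genes most correlated with CTNNB1 or APC. PPP2R1A, PPP2R5A, PYGO2, GSKIP, CUL1, LEF1, TNKS2 and CTNNA1 were added after their values were seen. APC2, AMER2, AMER3, CSNK1E, TCF7L1, LEF1 and PYGO1 were too low to test. CSNK1E, CTNND1 and NEDD8 share exons with read-through genes and are uncertain; strandedness is not stated. Coordinates are GENCODE 29 on GRCh38, the authors' build. Results were recomputed with filters of 0 and 5 TPM, with a pseudocount of 0.1, and with quantile normalization, median-ratio scaling, no variance trend, 1 fit of all 4 groups, a replicate block, a threshold of 0.01, and omission of single libraries. For list genes outside the 10, these alternatives were added after seeing the data.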

Additional observations from a re-analysis of the deposited data

Results flagged for a closer look

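The contrast between the arms, CTNNB1 effect less shAPC effect, passed an adjusted p of 0.05 in limma for 2 of the 10 genes and 11 of the 51 other list genes tested, against 16.1% of the 11741 genes tested. Vector, day and doxycycline differ between the arms too and cannot be told apart from the perturbations.

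Of the 10 genes, APC differed by 1.53 (SE 0.13, adjusted p = 1.2e-05), where the hairpin acts on APC itself, and FBXW11 by 0.39 (SE 0.08, adjusted p = 0.0059). AXIN2 differed by -0.56 (adjusted p = 0.00057), with a rise of 1.04 with CTNNB1 and 1.59 with shAPC, and RNF43 by -0.33 (adjusted p = 0.020). VCL differed by 0.54 (adjusted p = 0.0020), at 0.41 with CTNNB1 and -0.13 with shAPC. The phosphatase subunit genes PPP2R5E and PPP2R1B differed by 0.42 (adjusted p = 0.0037) and 0.40 (adjusted p = 0.011), and UBE2D3 by 0.35 (adjusted p = 0.0059). CAPRIN2 differed by 0.48 (adjusted p = 0.036), CDH1 by 0.32 (adjusted p = 0.017) and TCF7L2 by 0.31 (adjusted p = 0.031). PYGO2 (0.27, adjusted p = 0.023) and PPP2R5A (0.21, adjusted p = 0.044) also passed, though neither was called within an arm.

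In 7 other settings of the full data, APC, FBXW11, AXIN2, VCL, PPP2R5E, PPP2R1B and UBE2D3 kept the call in all 7. RNF43 kept it in 6, CDH1 in 5, TCF7L2 and PYGO2 in 4, and CAPRIN2 and PPP2R5A in 3. Of the 12 fits that left out a library, CDH1 kept the call in 12, RNF43 in 11, PYGO2 in 8, TCF7L2 in 6 (adjusted p up to 0.081), CAPRIN2 in 5 (up to 0.089) and PPP2R5A in 2 (up to 0.11), and the other 7 genes kept it in all 12.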

How the results depend on the processing

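Of the 10 genes, the number called with CTNNB1 was 3, and it was 1 without the filter (FBXW11) or the variance trend (AMER1), 0 with median-ratio scaling or an adjusted p under 0.01 (3 and 5 at an unadjusted p under 0.05), and 0 to 4 when a library was left out. It was 0 without GFP replicate 1, 2 or 3 or CTNNB1 replicate 2 (3 to 5 at an unadjusted p under 0.05), where 12.9% to 15.2% of all genes were called, and 4 without CTNNB1 replicate 1. CTNNB1 itself passed with quantile normalization (0.12, adjusted p = 0.048), and its log2 difference ran from 0.11 to 0.15 with a library left out. With shAPC the number called was 2, and it was 1 (APC) without the filter or the variance trend, with either scaling, with the replicate block or at 0.01, and 1 to 2 with a library left out. In the contrast of the arms it was 2 in every setting. The causes were not tested.

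Sign changes concerned uncalled genes. With CTNNB1, median-ratio scaling gave AXIN1 -0.038, GSK3A -0.011, CSNK1A1 -0.065 and TNKS -0.041, and quantile normalization gave AXIN1 -0.025 and TNKS -0.079. With a library left out AXIN1 ran from -0.025 to 0.11, CSNK1A1 from -0.042 to 0.037 and TNKS from -0.066 to 0.088. With shAPC, median-ratio scaling gave CTNNB1 0.039, CSNK1A1 0.0011 and AMER1 0.034, and quantile normalization gave CTNNB1 0.078, GSK3A 0.020 and CSNK1A1 0.032. With a library left out CTNNB1 ran from -0.029 to 0.043, GSK3A from -0.095 to 0.0013, AMER1 from -0.041 to 0.056 and TNKS from -0.059 to 0.037. In the contrast, median-ratio scaling gave CSNK1A1 -0.062, BTRC -0.057 and TNKS -0.0798, and quantile normalization gave CSNK1A1 -0.0032, BTRC -0.085 and TNKS -0.097. With a library left out CSNK1A1 ran from -0.00070 to 0.087, BTRC from -0.0067 to 0.086 and TNKS from -0.070 to 0.084.

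The replicate numbers were not shown to pair the libraries. Same-numbered libraries correlated at 0.21, 0.08 and 0.12 in the overexpression arm and at -0.14, 0.00 and -0.21 in the hairpin arm. In the overexpression arm their mean was 0.14, and that of differently numbered libraries was -0.07 (-0.19 to 0.08). In the hairpin arm these means were -0.12 and 0.06 (-0.13 to 0.21). Deviations from a group mean cancel out within the group, so the second mean nearly follows from the first and is no baseline. These correlations therefore cannot decide whether the numbers pair the libraries. With the replicate block 3 of the 10 were called with CTNNB1, 1 with shAPC (FBXW11 adjusted p = 0.058) and 2 in the contrast. Of the 51 other list genes, 11 rose and 1 fell (DVL1) with CTNNB1 under the block, against 12 and 1 in one fit of all 4 groups.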
